A study of Homo sapiens with 8 samples.

Results

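The genes that set the ovarian carcinoma cell line DOV-13 apart from 3 other ovarian cancer lines, SKOV-3, CAOV-3 and OVCAR-3, were sought in 8 Affymetrix arrays of human transcripts. The members were the 2 arrays labelled DOV-13, out of 8 in all, and the 6 arrays of the other lines were the comparison. Each line gave 1 array of cells that had received pI:pC, a synthetic double-stranded RNA that mimics viral RNA, and 1 array of untreated cells. The labels give several pI:pC concentrations without tying any to an array, and they give no exposure time. Cells of all 4 lines grew in the same medium with fetal bovine serum and gentamicin, and total RNA was hybridised as biotin-labelled cRNA.

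Each line was an established culture, so nothing here describes ovarian cancers in general, and the 2 arrays of a line differ in treatment and are no plain replicates. The labels do not say whether they came from separate cultures, and the p-values speak only of these arrays. Expression levels are the authors' log2 values made with RMA, and 11939 genes were tested, each by 1 probe set. Median log2 levels of the arrays lay between 6.19 and 6.30. Levels correlated across genes at 0.991 to 0.997 between the 2 arrays of a line, at 0.937 to 0.941 between DOV-13 and SKOV-3, at 0.89 to 0.899 between DOV-13 and CAOV-3, and at 0.892 to 0.893 between DOV-13 and OVCAR-3 (genes are not independent replicates). A mean difference of 1 or more on the log2 scale separated DOV-13 from SKOV-3 in 1171 genes (9.81%), from OVCAR-3 in 2020 (16.9%) and from CAOV-3 in 2064 (17.3%).

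Ovarian carcinoma lines keep different amounts of the epithelial programme of their tumours: adherent epithelial cells are tied together by E-cadherin, claudins and desmosomes and hold keratin filaments, while mesenchymal-like cells carry vimentin and N-cadherin and secrete matrix. They also differ in which growth factors they secrete and in which cell cycle brakes they have lost. A line's expression identity is the sum of such differences.

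A gene was called higher, or lower, in DOV-13 when limma, with cell line and treatment in the model, gave an adjusted p under 0.05 against each of the 3 other lines in the same direction, and both DOV-13 arrays lay outside the range of the other 6. By this rule 655 genes were higher (5.49% of those tested) and 556 were lower (4.66%). The nearest of the other lines was at least 1 log2 unit away for 182 of the higher genes (1.52%) and 109 of the lower ones (0.913%). Without the pI:pC array of DOV-13 the counts were 315 and 308, and without its untreated array 382 and 290. The same rule applied to each other line in turn called 751 higher and 617 lower in SKOV-3, 1296 and 971 in CAOV-3, and 1129 and 1049 in OVCAR-3. DOV-13 thus had the fewest genes of its own among these 4 lines by this count. For single genes below, unless another test is named, the adjusted p comes from the largest p of the 3 comparisons with single lines. The difference and SE printed beside it are from the mean of the other lines, so that p does not test them.

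The nearest other line was SKOV-3 for 325 of the 655 higher genes and 269 of the 556 lower ones. Between the 2 DOV-13 arrays the called genes had a median absolute difference of 0.097, and 20 of the 1211 differed by 0.5 or more. The call rule itself favours genes whose 2 arrays lie close together, so this is a description only. A test of the 2 DOV-13 arrays against the 6 others as one group, with treatment as a covariate, called 159 genes higher (1.33%) and 98 lower (0.821%), all among those above. That test counts the paired arrays of a line as independent, and its p-values are therefore too small. With the line as a random block in limma (estimated correlation of the 2 arrays of a line 0.891), 1 gene was higher (0.00838%) and 4 were lower (0.0335%): CCND2 (adjusted p = 0.00054), SCAF11 (0.00054), SLC38A1 (0.0193), SLC38A2 (0.0371) and AMIGO2 (0.0447). With line means, 1 line against 3, limma called none (0%) in either direction, and 458 genes had an unadjusted p under 0.05, below the 597 expected by chance.

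**Figure D1:**
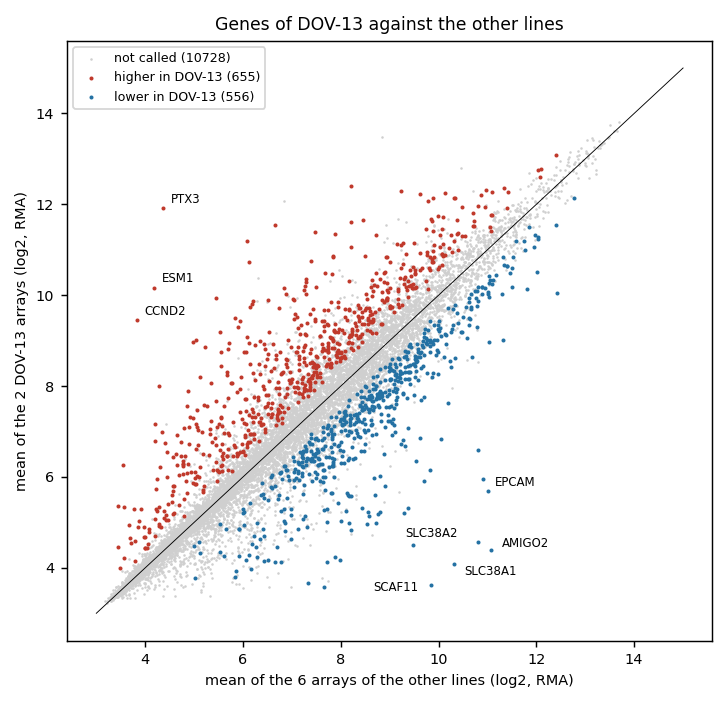
Mean log2 level of the 2 DOV-13 arrays (vertical) against the mean of the 6 arrays of the other lines (horizontal), 1 point per gene, 11939 genes. Red points are the 655 genes called higher in DOV-13, blue points the 556 called lower, and the line marks equal levels. PTX3, CCND2 and ESM1 stand far above it, and SCAF11, SLC38A1, SLC38A2 and AMIGO2 far below it.

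The lowest genes of DOV-13 were neighbours on chromosome 12. SCAF11, a splicing-associated factor, read 3.59 with pI:pC and 3.64 untreated in DOV-13, against 10.10 and 10.31 in SKOV-3, 9.54 and 9.63 in CAOV-3, and 9.75 and 9.72 in OVCAR-3. SLC38A1, a sodium-coupled glutamine transporter, read 4.09 on both DOV-13 arrays, against 9.54 and 9.62 in SKOV-3, 10.04 and 10.13 in CAOV-3, and 11.26 and 11.24 in OVCAR-3. SLC38A2, its neutral amino acid relative that cells induce when amino acids run short, read 4.57 and 4.55, against 9.81 and 9.71 in SKOV-3, 11.27 and 10.96 in CAOV-3, and 11.51 and 11.56 in OVCAR-3. In all 3 the DOV-13 arrays lay over 5 log2 units below every other array, with no overlap.

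AMIGO2, a cell adhesion protein with leucine-rich repeats, read 4.29 and 4.49 in DOV-13, against 11.98 and 11.99 in SKOV-3, 10.81 and 10.23 in CAOV-3, and 10.75 and 10.71 in OVCAR-3. The differences from the mean of the other lines were -6.23 (SE 0.075, limma adjusted p = 1.01e-07) for SCAF11, -6.22 (SE 0.069, 1.01e-07) for SLC38A1, -6.24 (SE 0.088, 4.55e-07) for SLC38A2 and -6.68 (SE 0.14, 2.97e-06) for AMIGO2. In the other lines the 4 genes stood at or above 87.1% of all genes on each array. In DOV-13 they stood at or below the 14.2% mark. All 3 probe sets of SCAF11 and both of SLC38A2 lay below every other array, with differences from -4.34 to -6.67.

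The 250 bases before the start of each of these 4 genes (GRCh38.p14, from RefSeq) are shown because the 4 moved together while standing side by side in the order of measured genes, with SLC38A4 as the only measured gene between them. All are on the minus strand: SCAF11 at chr12:45990575-45990824, SLC38A1 at chr12:46266517-46266766, SLC38A2 at chr12:46372774-46373023 and AMIGO2 at chr12:47079952-47080201. Capitals mark matches, on either strand, to 4 motifs: the TATA box, searched as TATAAA, the CAAT box as CCAAT, the AP-1 site of the Jun and Fos factors as TGANTCA, and the GC box of Sp factors as GGGCGG. No marked match overlaps another.
SCAF11: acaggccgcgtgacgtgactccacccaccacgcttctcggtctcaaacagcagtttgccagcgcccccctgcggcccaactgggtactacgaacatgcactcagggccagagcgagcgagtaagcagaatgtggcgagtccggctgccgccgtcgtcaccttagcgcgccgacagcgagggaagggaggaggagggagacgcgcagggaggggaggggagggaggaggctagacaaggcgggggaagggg
SLC38A1: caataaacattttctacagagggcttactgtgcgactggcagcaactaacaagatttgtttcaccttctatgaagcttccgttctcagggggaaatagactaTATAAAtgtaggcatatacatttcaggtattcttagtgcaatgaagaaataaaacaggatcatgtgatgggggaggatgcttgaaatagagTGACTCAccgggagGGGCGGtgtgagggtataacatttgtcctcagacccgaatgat
SLC38A2: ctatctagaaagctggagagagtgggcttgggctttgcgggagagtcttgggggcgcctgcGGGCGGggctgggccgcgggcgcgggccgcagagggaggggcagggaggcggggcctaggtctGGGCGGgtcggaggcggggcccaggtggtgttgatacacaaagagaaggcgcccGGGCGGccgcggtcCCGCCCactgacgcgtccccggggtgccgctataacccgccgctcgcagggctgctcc
AMIGO2: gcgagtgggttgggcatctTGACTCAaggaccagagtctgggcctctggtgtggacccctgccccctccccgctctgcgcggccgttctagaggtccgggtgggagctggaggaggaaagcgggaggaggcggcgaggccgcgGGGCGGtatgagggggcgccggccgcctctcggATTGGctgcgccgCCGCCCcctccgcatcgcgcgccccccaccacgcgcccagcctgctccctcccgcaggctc

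No motif was found in all 4 windows. SLC38A1 held 1 TATA box, 1 AP-1 site and 1 GC box, SLC38A2 held 4 GC boxes, AMIGO2 held 1 CAAT box, 1 AP-1 site and 2 GC boxes, and SCAF11 held none of the motifs. Among 27305 windows of this length in the RefSeq table, the TATA box occurred in 11.1%, the CAAT box in 33.0%, the AP-1 site in 6.6% and the GC box in 42.3%. The windows held 22 CpG dinucleotides in SCAF11, 5 in SLC38A1, 26 in SLC38A2 and 26 in AMIGO2, against a median of 11 over all windows, 19 over the tested genes not called and 22 over both the higher and the lower genes. Of the genes tested here 9547 had a window. The GC box occurred in 67.9% of the 545 with a window that were higher in DOV-13, in 72.0% of the 461 that were lower and in 59.5% of the 8541 not called, which is a description only.

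Around the 4 genes the differences were smaller. RPAP3, a cochaperone next after AMIGO2, read 7.75 and 7.62 in DOV-13 against 9.40 to 9.80 elsewhere (difference -1.95, SE 0.086, limma adjusted p = 6.76e-05). On the other side TWF1, an actin monomer-binding protein, was lower by a smaller step, at 9.93 in the untreated DOV-13 array against 10.90 to 11.20 in the other lines (difference -1.05, adjusted p = 0.000622). YAF2 fell in the same range, with 6.58 and 6.63 against 7.42 to 7.87 (difference -1.03, adjusted p = 0.00132). PUS7L was called as well (difference -0.84, adjusted p = 0.0397) but lost the call in 6 of the 8 fits that left out 1 array. PLEKHA8P1, between TWF1 and SCAF11, was not called (difference -0.61, adjusted p = 0.115), and SLC38A4 read 3.49 and 3.32 in DOV-13 and was dim in every line. Of the 20 measured genes in a row from RESF1 to RPAP3, 10 were lower in DOV-13, where the median row of 20 genes held 0. No row held more lower genes, and this one was picked for its count.

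**Figure D2:**
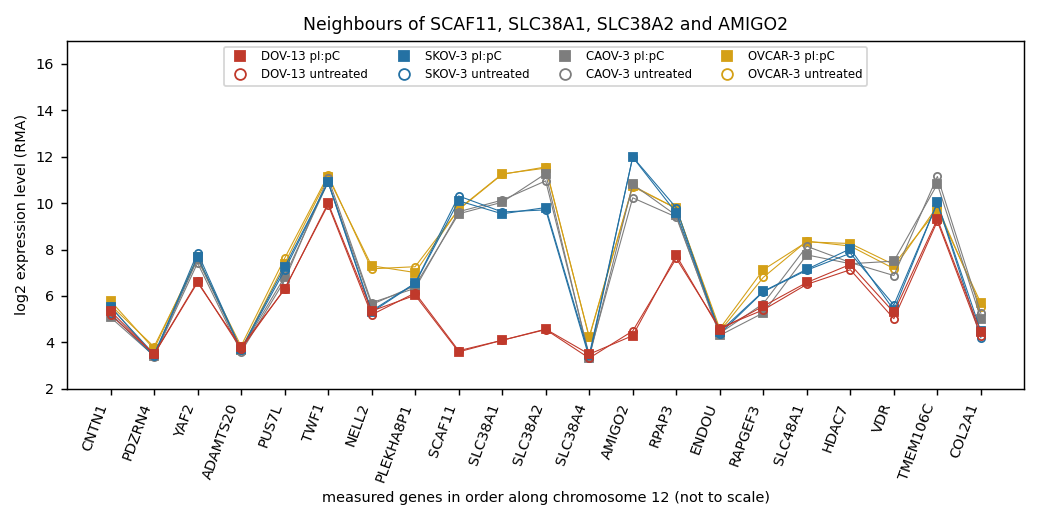
Log2 expression level (vertical) of 21 measured genes in their order along chromosome 12 (horizontal, not to scale), with 1 line per array. At SCAF11, SLC38A1, SLC38A2 and AMIGO2 both DOV-13 arrays lie between 3.59 and 4.57 while the other 6 lie between 9.54 and 11.99.

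Of the 15 genes named as highest above the other lines, PTX3, ESM1, INHBA, CLEC11A and LOX encode secreted proteins. PTX3, a soluble pattern recognition protein that binds microbes and complement, read 11.97 with pI:pC and 11.85 untreated in DOV-13, against 3.52 and 3.70 in SKOV-3, 6.47 and 3.76 in CAOV-3, and 4.57 and 4.20 in OVCAR-3. The difference from the other lines was 7.54 (SE 0.49, limma adjusted p = 0.000382). DOV-13 held this level with and without pI:pC, and the next highest array was CAOV-3 with pI:pC. ESM1 (endocan), a proteoglycan best known from endothelium, read 10.64 and 9.69 against 3.86 to 4.44 (difference 5.97, SE 0.20, adjusted p = 1.40e-05), and here the treated DOV-13 array was the higher.

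INHBA, the subunit from which activin A is built, read 9.84 and 10.05 in DOV-13, 6.52 and 6.35 in SKOV-3, and 4.80 to 5.13 in CAOV-3 and OVCAR-3 (difference 4.50, SE 0.088, limma adjusted p = 4.85e-06). Its other probe set was dim, with a difference of 0.54. CLEC11A, a secreted growth factor for blood and bone progenitors, read 9.94 and 9.82 against 5.34 to 6.68 (difference 3.68, adjusted p = 2.97e-06). LOX, the enzyme that cross-links collagen and elastin, read 8.90 and 8.81 against 4.35 to 6.03 (difference 3.62, adjusted p = 9.45e-05). All of these groups were apart without overlap.

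At the cell surface ITGA4, the alpha 4 integrin that pairs with beta 1 to bind fibronectin and VCAM1, read 7.98 and 8.03 against 3.84 to 4.89 (difference 3.72, limma adjusted p = 2.29e-05). ENG (endoglin), a coreceptor of the TGF-beta family, read 8.69 and 8.81 against 5.25 to 5.76 (difference 3.19, adjusted p = 1.37e-05). STOM (stomatin) and RFTN1 (raftlin), both proteins of membrane rafts, differed by 2.93 and 3.41. All 3 probe sets of ITGA4 lay above every other array.

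Among genes that act inside the cell, CCND2 (cyclin D2), which drives CDK4 and CDK6 in G1, read 9.57 and 9.34 in DOV-13, 3.96 and 3.85 in SKOV-3, 3.68 and 3.70 in CAOV-3, and 3.98 and 3.88 in OVCAR-3. The difference of 5.62 (SE 0.076) had a limma adjusted p of 1.28e-07, and the gene was near the floor of the array in every other line. Its other 2 probe sets were also highest in DOV-13, by 1.02 and 0.79. PADI2, which converts arginine to citrulline in proteins, read 10.52 and 10.92 against 5.77 to 6.70 (difference 4.59, adjusted p = 1.06e-05). ALDH1A3, which makes retinoic acid, read 11.47 and 11.60 in DOV-13, 8.34 and 8.23 in CAOV-3, 6.73 and 7.03 in SKOV-3, and 4.81 and 4.77 in OVCAR-3 (difference 4.88, adjusted p = 1.03e-05). TLE4, a Groucho-type corepressor, read 11.23 and 11.14, and SKOV-3 came next at 7.80 and 7.84 (difference 5.11, adjusted p = 1.06e-05). FEZ1, a kinesin adaptor (difference 3.98), and FRMD4A, a scaffold of cell polarity (3.07), complete the 15 named genes, of which 13 were also called in the comparison of 2 arrays with 6.

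Beyond the chromosome 12 genes, those furthest below the other lines included VAMP8, S100A4, L1CAM, QPRT, KAZN and EPCAM. VAMP8, a SNARE protein of regulated secretion, read 4.30 and 4.72 in DOV-13, 8.32 and 8.29 in SKOV-3, 10.67 on both CAOV-3 arrays, and 9.42 and 9.45 in OVCAR-3 (difference -4.96, limma adjusted p = 6.57e-06). EPCAM, the epithelial adhesion molecule, read 5.94 and 5.42, then 8.44 and 8.5 in SKOV-3, with CAOV-3 and OVCAR-3 between 11.90 and 12.58 (difference -5.33, adjusted p = 3.47e-05). L1CAM, an adhesion molecule of neurons and many carcinomas, read 5.46 and 5.19 against 8.62 to 10.14 (difference -4.05, adjusted p = 4.23e-05). KAZN (kazrin), which associates with desmosomes, was lower by a difference of -3.58 (adjusted p = 1.40e-05). Its other probe sets differed by -0.07 and -0.39, and neither lay below every other array.

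S100A4, a calcium-binding protein usually counted with mesenchymal genes, read 6.12 and 5.80 in DOV-13, 12.75 and 12.64 in SKOV-3, and 9.67 to 10.42 in CAOV-3 and OVCAR-3 (difference -4.95, limma adjusted p = 8.70e-06). Unlike it, 5 other mesenchymal genes described further on were higher. SERPINH1, the collagen chaperone HSP47, read 6.76 and 6.93 against 9.17 to 10.52 (difference -3.20, adjusted p = 1.40e-05). RHOB, a small GTPase of endosomes and actin, read 5.46 and 5.18 against 7.80 to 8.65 (difference -3.11, adjusted p = 4.38e-05). QPRT, an enzyme of NAD synthesis (-3.56), MLLT11 (-3.68), and the actin-linked ABLIM1 (-3.57) and ADD3 (-2.57) were lower as well. In this set of 15, 9 genes were also called in the comparison of 2 arrays with 6.

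**Figure D3:**
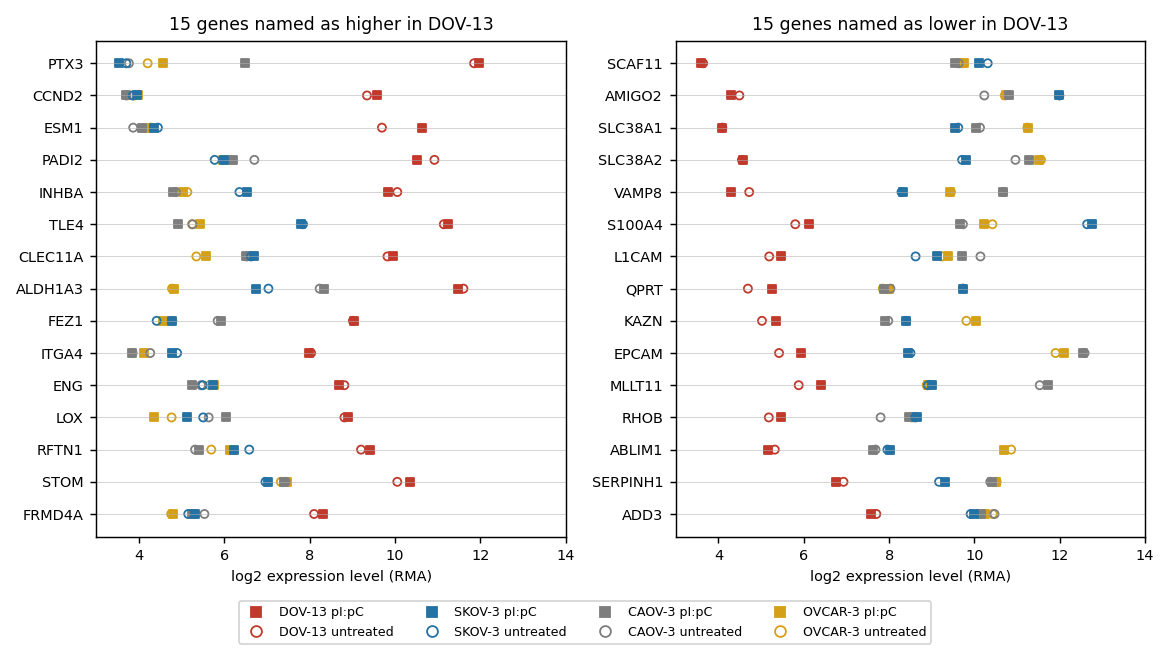
Log2 expression level (horizontal) of the 15 genes named as higher (left) and the 15 named as lower (right) in DOV-13, by the gap to the nearest other array. Filled squares are arrays of pI:pC-treated cells and open circles of untreated cells, and in every gene both red DOV-13 marks lie apart from the other 6, by at least 2.57 on the left and 2.21 on the right.

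Genes were next read by lists, and each count stands against 5.49% higher and 4.66% lower over all genes. The lists were chosen with earlier results of these data known. The label of an ovarian epithelial line was checked against markers. PAX8, the transcription factor of Mullerian epithelium, read 8.63 and 8.73 in DOV-13, between CAOV-3 (8.06 and 8.11) and the other lines (10.01 to 10.60), and it was not called. Keratins 8, 7 and 19 were at high levels: KRT8 read 10.92 and 10.93, KRT7 12.08 and 12.20, and KRT19 11.57 and 11.68. KRT7 was higher than in every other line (difference 2.25, limma adjusted p = 0.0111), with CAOV-3 next at 11.34 and 11.72 and SKOV-3 last at 7.54 and 7.51. That call was lost without either DOV-13 array (differences 2.25 and 2.25, highest adjusted p = 0.0888), and the mean over its probe sets gave a difference of 1.14. KRT19 differed by 0.89 (adjusted p = 0.0348) and lost its call in 6 of the 8 fits that left out 1 array. MUC16 (the CA125 antigen) read 4.35 and 4.05, and WT1 read 5.08 and 5.07, both below the median gene of the arrays.

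Of 19 measured genes of ovarian carcinoma lineage, 0 were higher and 3 were lower in DOV-13 by limma (15.8% called in all). The same counts held at an unadjusted p under 0.05. The median difference of the list was -1.21, against 0.017 over all genes. By array the median level of the list was 5.85 and 5.74 in DOV-13, 6.29 and 6.16 in SKOV-3, 5.93 and 5.94 in CAOV-3, and 8.32 and 8.34 in OVCAR-3. SPON1 read 6.61 and 6.56 against 7.89 and more elsewhere (difference -4.22, limma adjusted p = 6.80e-05). MUC1, a membrane mucin, read 5.81 and 5.77, SKOV-3 6.51 and 6.5, and the rest 7.89 to 12.20 (difference -3.11, adjusted p = 0.00657). MUC1 lost the call without the untreated SKOV-3 array (difference -3.07) or the treated DOV-13 array (-3.02). CD24, a mucin-type surface glycoprotein, read 9.63 and 10.46 against 11.01 to 13.20 (difference -2.37, adjusted p = 0.00889), was lower by each of its probe sets, and lost the call without the treated DOV-13 array (-2.11) or the untreated CAOV-3 array (-2.26).

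Of 22 measured epithelial junction and keratin genes, 2 were higher (KRT7 and KRT19) and 4 lower (EPCAM, CLDN7, DSP and PKP3). That is 27.3% called, with a list median of -1.31. By array the median level of the list was 5.96 and 6.12 in DOV-13 and 6.47 and 6.24 in SKOV-3. It was 8.68 to 8.9 in CAOV-3 and OVCAR-3, so the low level of the list was largely shared with SKOV-3. CLDN7, a tight junction claudin, read 6.25 and 6.36 against 6.71 to 8.98 (difference -1.76, limma adjusted p = 0.0143). DSP (desmoplakin) read 9.31 and 9.28 against 9.77 to 11.61 (difference -1.50, adjusted p = 0.00534), and PKP3 (plakophilin 3), its desmosomal partner, read 7.38 and 7.46 against 8.27 to 8.80 (difference -1.15, adjusted p = 0.000713). CLDN7 lost its call without the treated SKOV-3 array or the treated DOV-13 array (highest adjusted p = 0.155), and DSP without the untreated DOV-13 array (difference -1.44). CDH1 (E-cadherin) was dim in DOV-13 (3.96 and 3.58) and in SKOV-3 (3.89 and 3.74), against 9.41 to 9.70 in CAOV-3 and OVCAR-3, and so was no feature of DOV-13 alone. CLDN4 followed the same order (5.67 and 5.27 in DOV-13, 5.67 and 5.45 in SKOV-3).

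Vimentin stood at 13.49 on both DOV-13 arrays and at 13.58 and 13.60 in SKOV-3, against 7.23 and 7.53 in CAOV-3 and 5.80 and 5.30 in OVCAR-3. Of 23 measured mesenchymal genes, 5 were higher in DOV-13 (CDH2, CDH11, ZEB2, ACTA2 and LOX) and 1 was lower (S100A4). That is 26.1% called, with a list median of 0.34. By array the median level of the list was 6.89 and 7.03 in DOV-13, 6.47 and 6.18 in SKOV-3, and 5.4 to 5.63 in CAOV-3 and OVCAR-3. The summed log2 level of the list instead placed SKOV-3 (176.6 and 176.2) above DOV-13 (170.6 and 170.4). It was 129.5 to 147.5 in CAOV-3 and OVCAR-3. FN1 (fibronectin), at 10.37 and 10.66 in DOV-13, lay below SKOV-3 and CAOV-3 and above OVCAR-3, and was not called (difference -0.48). CDH2 (N-cadherin) read 11.43 and 11.28, SKOV-3 10.08 and 10.04, and the rest 6.06 to 7.53 (difference 3.48, limma adjusted p = 0.000776). ACTA2, smooth muscle actin, read 8.48 on both arrays against 5.63 to 6.79 (difference 2.14, adjusted p = 0.00148), although its other probe set gave -0.14 at levels near 4. ZEB2, a repressor of E-cadherin, was higher at low levels (5.56 and 5.16 against 3.31 to 3.67, adjusted p = 0.000251), whereas ZEB1 was below SKOV-3 and not called (7.65 and 7.72, SKOV-3 8.36 and 8.42). In RNA of a whole culture, fewer expressing cells and less RNA per cell cannot be told apart.

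Markers of other cell types were measured beside these. None of 18 leukocyte genes was called by limma, and 0 had an unadjusted p under 0.05 against each line in 1 direction. Of 11 endothelial genes, CDH5 (6.02 and 5.43 against 4.0 to 4.42, limma adjusted p = 0.00348) and ENG were higher, while PECAM1 (5.58 and 5.34), VWF (5.69 and 5.70) and TEK (6.19 and 6.10) were below the median gene of the array as in the other lines. The summed log2 level of the 11, CDH5 and ENG among them, was 60.8 and 58.9 in DOV-13, against 54.5 to 56.6 in the other lines. The median difference of the list was 0.011, against 0.017 over all genes. Of 13 mesothelial and fibroblast genes 2 were higher: BNC1 (basonuclin), at 6.60 and 6.43 against 4.11 to 5.05 (difference 1.89, adjusted p = 0.00127), and CALB2 (calretinin), at 6.55 and 6.23 against 5.33 to 5.73 (difference 0.80, adjusted p = 0.0143), which lost the call in 4 of the 8 fits without 1 array. The part of any admixed cells in the calls was not tested.

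Extracellular matrix and its receptors were mixed. LAMB1, a laminin beta chain of basement membranes, read 10.46 and 10.53 against 8.38 to 9.30 (difference 1.77, limma adjusted p = 0.00091), while LAMA5 read 7.20 and 7.28 against 8.15 to 9.38 (difference -1.59, adjusted p = 0.000432). With ITGA4 and ITGA6 higher, 3 of 27 integrin and laminin genes were higher and 1 was lower (14.8%). ITGA6 (difference 1.90) lost its call without the treated DOV-13 array (1.62) or either SKOV-3 array (1.86 and 1.94). Of 22 collagens, 2 were called, a share of 9.1% near that of all genes (10.1%): COL8A1 (5.35 and 5.24 against 3.65 to 3.91) and COL6A2 (7.20 and 7.06 against 5.07 to 6.34) were higher. Of 23 matrix proteases and inhibitors 2 were higher (MMP2 and PLAT) and 2 lower (MMP15 and TIMP2). PLAT, MMP15 and TIMP2 lost the call in 5, 6 and 3 of the 8 fits without 1 array. MMP2, a gelatinase, read 8.45 and 8.75 against 5.89 to 7.33 (difference 2.12, adjusted p = 0.000695).

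Among growth factors and their receptors, 6 of 35 genes of the FGF, PDGF, MET, AXL and IGF families were higher in DOV-13 and 1 was lower. FGF5, a secreted fibroblast growth factor, read 7.87 and 8.27 against 5.18 to 5.49 (difference 2.72, limma adjusted p = 2.44e-05). MET, the hepatocyte growth factor receptor, read 12.18 and 12.28, and the others 7.58 to 10.92 (difference 2.62, adjusted p = 0.000299). KITLG, the ligand of KIT, read 6.85 and 7.13 against 3.81 to 5.56 (difference 2.64, adjusted p = 0.00261). GAS6, the ligand of AXL, read 10.26 and 10.10 against 7.25 to 9.30 (difference 1.57, adjusted p = 0.00176), while AXL itself was not called (11.25 and 11.27, SKOV-3 11.44 and 11.37).

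PDGFC read 11.62 and 11.60 in DOV-13 and 10.26 to 10.54 in SKOV-3 and OVCAR-3, and was dim in CAOV-3 at 3.79 and 3.74. Its difference from the mean of the other lines was 3.41 (limma adjusted p = 0.000268), and it stood 1.10 above SKOV-3, 1.28 above OVCAR-3 and 7.84 above CAOV-3. IGFBP4 was higher by 1.38 (adjusted p = 0.0138) and lost its call in 3 of the 8 fits without 1 array, and FGFR3 was the lower gene (difference -1.28, adjusted p = 0.00381). Of 11 EGF family genes 2 were higher, both ligands. NRG1, which binds ERBB3 and ERBB4, read 9.80 and 10.05 against 4.99 to 8.47 (difference 2.89, adjusted p = 0.000257), with a probe set of opposite sign at dim levels (-0.05). HBEGF read 9.64 and 9.53 against 6.74 to 8.69 (difference 2.22, adjusted p = 0.0069) and lost its call without the untreated DOV-13 array (2.01). EGFR was not called (9.62 and 9.65), and neither was ERBB2 (8.44 and 8.65), for which SKOV-3 stood highest at 10.81 and 10.70. Another probe set of EGFR read 7.25 and 7.14 in DOV-13, below every other array (7.29 to 9.13, difference -1.09).

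Lysophosphatidic acid, a lipid growth factor found in the ascites of ovarian cancer patients, acts through LPA receptors and is broken down by lipid phosphatases. Of 13 measured genes of this system and of the related sphingosine 1-phosphate, 4 were higher in DOV-13 and 0 lower by limma (30.8%; 4 and 1 at an unadjusted p under 0.05), and the list median was 0.033. PLPP3, a lipid phosphatase, read 9.30 and 9.88 against 6.68 to 7.84 (difference 2.54, limma adjusted p = 0.0017). SPHK1, which makes sphingosine 1-phosphate, read 8.72 and 8.44 against 5.81 to 7.63 (difference 1.68, adjusted p = 0.00103), and its receptor S1PR1 was higher at low levels (5.61 and 5.08 against 4.13 to 4.55, adjusted p = 0.00475). LPAR1 read 8.36 and 8.18 against 5.62 to 6.93 (difference 1.92, adjusted p = 0.00926) and lost its call in 4 of the 8 fits without 1 array. LPAR2 (6.31 and 6.25) and LPAR3 (5.4 and 5.43) were not called.

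Of 36 TGF-beta and BMP pathway genes, 4 were higher and 4 lower (22.2% called). TGFB2, a ligand, read 8.31 and 8.18 against 4.6 to 6.89 (difference 2.58, limma adjusted p = 0.000306). TGFBR2, the signalling receptor, read 10.04 and 10.16 against 8.13 to 9.37 (difference 1.44, adjusted p = 0.00231), while TGFBR3 (betaglycan), the coreceptor, was lower (4.94 and 4.77 against 5.55 to 6.29, adjusted p = 0.00399). INHBA and GDF15 were the other higher ligands. ID1, a target of BMP signalling, read 10.11 and 10.90 against 11.71 to 12.40 (difference -1.50, adjusted p = 0.00276). ID4 read 4.18 and 4.08 against 5.37 to 9.73 (difference -3.59, adjusted p = 0.0145) and lost its call without the treated SKOV-3 array (-3.49) or the untreated DOV-13 array (-3.11). LTBP1, which stores TGF-beta in matrix, was lower (difference -2.15, adjusted p = 0.00472), and lost its call without the untreated DOV-13 array (highest adjusted p = 0.0547). Of 31 WNT pathway genes 2 were called, a share of 6.5% under that of all genes. The receptor ROR1 was higher, with the call lost in 7 of the 8 fits without 1 array. Its other probe set went the opposite way, with both DOV-13 arrays below every other array (difference -0.35). The mean over the ROR1 probe sets gave a difference of 0.215 and no call. The secreted inhibitor SFRP1 was lower, at 4.92 and 5.06 against 6.75 to 9.44 (difference -3.19, adjusted p = 2.44e-05).

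Genes of the DNA damage response and cell cycle inhibitors gave the largest share of calls of any list. Cells answer DNA damage by inducing cell cycle inhibitors, repair proteins and death genes. Of 20 measured genes of this list, 11 were higher in DOV-13 and 1 was lower, which is 60.0% called against 10.1% of all genes tested, with a list median of 1.19. By array the median level of the list was 8.4 and 8.41 in DOV-13, 7.77 and 7.9 in CAOV-3, and 6.72 to 6.93 in SKOV-3 and OVCAR-3. The list mixes damage-induced genes with inhibitors such as CDKN2A and RB1. Of its 15 damage-induced genes 10 were higher, 0 were lower and 14 had a positive difference (median 1.32). In the comparison of 2 arrays with 6, 3 of these 15 were called higher. This subset was drawn after the values were seen. The list itself was chosen with earlier results of these data known, so its share of calls is a description only.

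CDKN1A (p21), a CDK inhibitor that DNA damage induces, read 10.13 and 10.23 in DOV-13, 8.91 and 8.87 in CAOV-3, 6.98 and 7.21 in OVCAR-3, and 6.39 and 6.57 in SKOV-3 (difference 2.69, SE 0.078, limma adjusted p = 0.000187). MDM2, a ubiquitin ligase, read 6.70 and 6.75 against 4.61 to 5.15 (difference 1.82, SE 0.071, adjusted p = 3.69e-05). Of its other 4 probe sets, 1 was also highest in DOV-13 (1.36), and the other 3 differed by 0.01 to 0.08 at dim levels. PHLDA3, a repressor of AKT, read 8.01 and 7.91 against 6.61 to 6.91 (difference 1.22, adjusted p = 0.000219). These 3 were apart from every other array.

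Genes of repair and stress followed. SESN1 (sestrin 1) read 7.62 and 7.64 against 5.89 to 6.84 (difference 1.13, limma adjusted p = 0.0013). AEN, an apoptosis-enhancing nuclease, read 8.30 and 8.33 against 6.69 to 7.51 (difference 1.36, adjusted p = 0.00209). XPC, a damage sensor of nucleotide excision repair, read 8.5 and 8.48 against 7.09 to 7.82 (difference 1.04, adjusted p = 0.00192), and PLK2 read 11.93 in the untreated DOV-13 array, the lower of its pair, against 9.83 to 11.38 (difference 1.15, adjusted p = 0.00315).

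BAX, a pore-forming protein of mitochondria, read 6.57 and 6.45 against 4.54 to 5.58 (difference 1.33, limma adjusted p = 0.00162). GDF15, a stress cytokine, read 7.92 and 7.96, with CAOV-3 next at 7.26 and 6.79 (difference 2.01, adjusted p = 0.0149), and lost its call without the treated (highest adjusted p = 0.106) or the untreated DOV-13 array. ZMAT3 (difference 1.52, adjusted p = 0.0267) lost its call in 7 of the 8 fits without 1 array. FAS, TNFRSF10B, DDB2 and GADD45A were among the genes not called. In FAS (9.23 and 9.12) and DDB2 (8.66 and 8.60) DOV-13 and CAOV-3 overlapped, with SKOV-3 and OVCAR-3 at 7.14 or below.

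**Figure D4:**
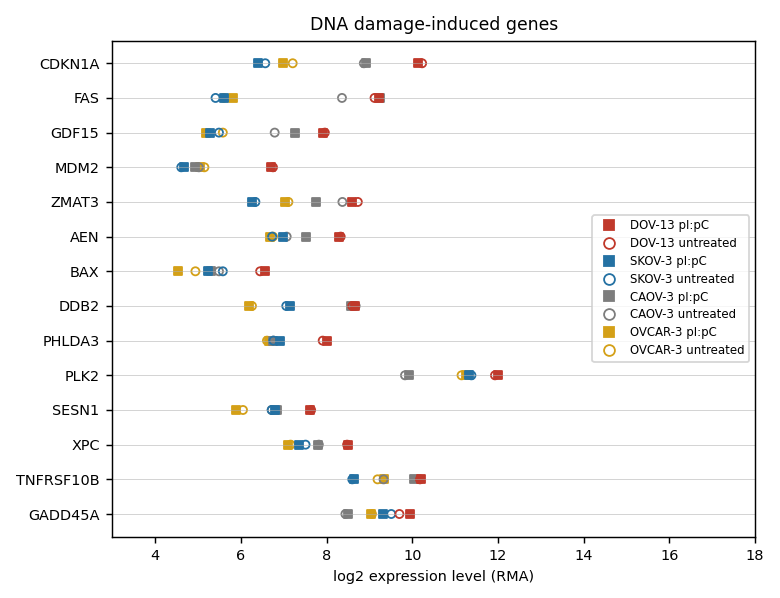
Log2 expression level (horizontal) of 14 of the 15 measured damage-induced genes, ordered by the difference of DOV-13 from the mean of the other lines, with 1 mark per array. In CDKN1A, MDM2, AEN, PHLDA3, SESN1 and XPC both DOV-13 marks lie above the other 6, while in FAS and DDB2 they lie among those of CAOV-3.

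Genes of death execution outside that list showed APAF1, the scaffold of the apoptosome, higher (7.76 and 7.66 against 5.63 to 6.51, limma adjusted p = 0.000253) and PMAIP1 (NOXA), a BH3-only protein, higher (11.14 and 11.15 against 8.26 to 9.87, adjusted p = 0.000296). CASP9, the caspase that APAF1 activates, was lower by -0.88 (adjusted p = 0.0207) and lost its call in 4 of the 8 fits without 1 array. Of 31 apoptosis genes 4 were higher and 1 was lower. Beside the inhibitors, RB1 read 10.24 and 9.97 in DOV-13, 9.47 and 9.62 in SKOV-3, 8.53 and 8.64 in OVCAR-3, and 3.50 and 3.69 in CAOV-3 (difference 2.87, adjusted p = 0.0222), and lost its call in 5 of those fits. CDKN2A (p16 and p14ARF) was low in DOV-13 (6.69 and 6.48) and SKOV-3 (6.68 and 6.69), against 10.18 to 11.15 in CAOV-3 and OVCAR-3. MTAP, its neighbour at 9p21 and an enzyme of methionine salvage, read 4.66 and 4.63 in DOV-13 against 5.84 to 6.74 (difference -1.70, adjusted p = 0.000617). Of the 5 MTAP probe sets, 3 lay below every other array and the other 2 differed by 0.19 and 0.22.

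In the cell cycle CCND1 (cyclin D1) was also higher, at 10.56 and 10.38 against 8.90 to 10.03 (difference 0.95, limma adjusted p = 0.0283), with the call lost in 6 of the 8 fits without 1 array. Of 26 G2 and mitosis genes, 4 were higher and 1 was lower, with a list median of 0.55. The higher ones were AURKB, TTK, KIF11 and HMMR, with differences of 0.77, 0.55, 0.78 and 1.03, and NUSAP1 was lower by -0.74. These 5 calls were lost in 5, 5, 2, 7 and 5 of the fits without 1 array. RRM2, the ribonucleotide reductase subunit of S phase, was lower with a firmer margin, at 10.10 and 9.94 against 11.08 to 11.60 (difference -1.29, adjusted p = 0.000304), the only call among 24 S phase genes.

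GSTT1, a glutathione transferase, read 4.98 and 5.04 against 6.86 to 9.04 (difference -2.70, limma adjusted p = 5.08e-05). With GCLC, PGD and CBR1, which lost their calls in 2, 3 and 4 of the 8 fits without 1 array, 4 of 27 NRF2 and glutathione genes were lower, and TXNRD1 (thioredoxin reductase) alone was higher, at 12.26 and 12.27 against 10.53 to 11.55 (difference 1.18, adjusted p = 0.0019). ALDH5A1 (5.91 and 5.86 against 7.28 to 8.13, adjusted p = 9.07e-05) and ALDH7A1 (8.49 and 8.46 against 9.21 to 9.70, adjusted p = 0.00209) were lower, whereas ALDH1A3 was higher. Of 11 cholesterol genes 3 were lower (MSMO1, SC5D and SREBF2, differences -1.06, -0.73 and -0.74), and each lost its call in 2 or 3 of the fits without 1 array. Of 12 drug efflux transporters 3 were higher, led by ABCC4 (8.91 and 8.97 against 4.63 to 7.90, difference 2.81, adjusted p = 0.000208). ABCA1 and ABCA3, also called higher, lost their calls in 3 and 5 of the 8 fits without 1 array.

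Of 24 MAPK feedback and immediate early genes 3 were higher and 2 lower. DUSP1, a phosphatase that switches off MAP kinases, read 10.95 and 10.78 against 8.08 to 9.13 (difference 2.37, limma adjusted p = 0.000143), while the immediate early gene EGR1 read 6.75 and 6.40 against 7.79 to 9.19 (difference -1.84, adjusted p = 0.00202). CD59, which blocks the complement membrane attack complex, read 12.18 and 12.09 against 10.01 to 10.71 (difference 1.83, adjusted p = 0.000213). THBD (thrombomodulin) and PROCR, both of the protein C anticoagulant pathway, differed by 3.12 and 1.92. These were the 3 calls among 20 complement and coagulation genes, whose median difference was -0.59, and 0.075 once CAOV-3 was left out. HMGA1, a chromatin protein of embryonic and cancer cells, was higher (difference 1.65, adjusted p = 0.00301), and PRAME, a cancer-testis antigen, was lower at 4.90 and 5.08 against 7.16 to 10.12 (difference -3.72, adjusted p = 9.45e-05).

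Genes of the interferon response and of antigen presentation gave no calls in this line. None of 42 interferon-stimulated genes and none of 23 MHC genes was called in either direction by limma, and at an unadjusted p under 0.05 against each line in 1 direction there was 1 gene in each list. The median difference of the interferon list was -0.63, and 0.041 once CAOV-3 was left out. With pI:pC and untreated, the median level of this list was 6.38 and 6.27 in DOV-13 and 5.86 and 5.52 in SKOV-3. It was 10.02 and 7.8 in CAOV-3, and 7.73 and 5.98 in OVCAR-3. The model holds a single treatment effect for all lines, so genes whose response differs between lines have a larger error. The absence of calls therefore does not show that these genes were alike between the lines. The 13 measured neighbours of ERBB2 at 17q12 and the 5 of CCNE1 at 19q12 held 0 calls by limma, also at an unadjusted p under 0.05.

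The called genes were not spread evenly over the chromosomes. On chromosome 13, 49 of 214 measured genes were higher in DOV-13 (22.9%, against 5.49% overall) and 4 were lower, and the median difference of the chromosome was 0.26. Chromosome 18 came next with 10.34% higher. On chromosome 15, 58 of 360 genes were lower (16.11%, against 4.66% overall) with a median of -0.25, and on chromosome 22, 48 of 312 (15.38%). Genes on 1 chromosome share their neighbourhood and are not independent, and no test was made.

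**Figure D5:**
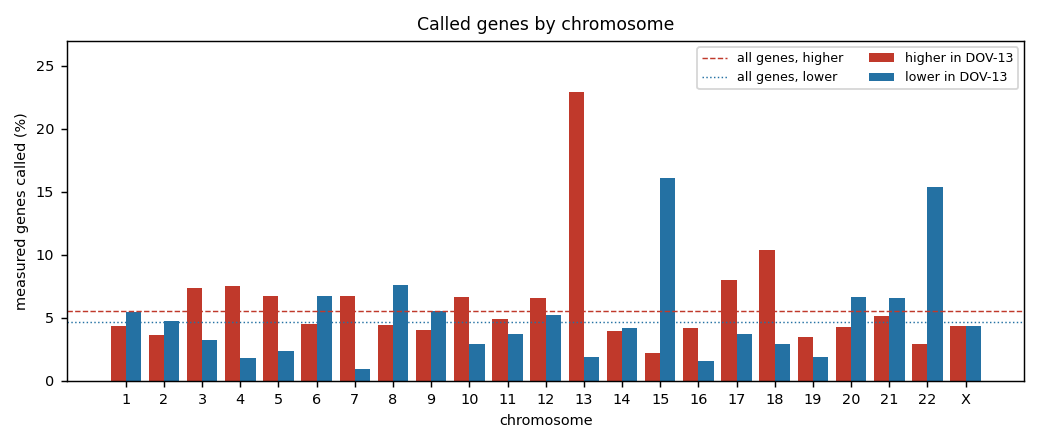
Percent of the measured genes of each chromosome (horizontal) called higher (red) or lower (blue) in DOV-13, with the percentages over all genes as dashed and dotted lines. Chromosome 13 stands out among the higher genes at 22.9%, and chromosomes 15 and 22 among the lower ones at 16.11% and 15.38%.

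Rows of 20 neighbours were picked for holding the most calls, and the genes named here were chosen after their values were seen. Of 11493 overlapping rows, 69 held 7 or more higher genes and 140 held 7 or more lower ones. From RPH3AL to SRR on chromosome 17, 11 of 20 genes in a row were higher, the most in any row, where the median row held 1. These 11 included PRPF8, a core protein of the spliceosome (10.57 and 10.63 against 8.93 to 9.61, difference 1.37, limma adjusted p = 0.00088), RPA1, which coats single-stranded DNA (10.78 and 10.70 against 9.70 to 9.99, adjusted p = 0.001), and GLOD4 (9.76 and 9.68 against 8.14 to 8.52, adjusted p = 0.000137). A further row, from SLC25A11 to KIAA0753, added C1QBP (difference 0.97) and MIS12, a kinetochore protein (difference 1.31). On chromosome 13 the higher genes included POLR1D, a shared subunit of RNA polymerases I and III (10.39 and 10.35 against 8.92 to 9.39, adjusted p = 0.000296), TFDP1, the partner of E2F (10.13 on both arrays against 8.98 to 9.38, adjusted p = 0.00163), and ABCC4 and GAS6 described above.

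Among the lower rows, 10 of 20 genes from PITPNB to ASCC2 on chromosome 22 were lower, also the most in any row. NF2 (merlin), a tumour suppressor of the Hippo pathway, read 6.32 and 6.40 in DOV-13, 9.81 and 9.90 in SKOV-3, 8.38 and 8.75 in CAOV-3, and 10.26 and 10.11 in OVCAR-3 (difference -3.17, SE 0.10, limma adjusted p = 4.59e-05). Its drop was larger than those of the row as a whole, whose median difference was -0.64. XBP1, a factor of the unfolded protein response in the same row, read 8.04 and 7.58 against 8.76 to 10.24 (difference -1.69, adjusted p = 0.0036). Further along chromosome 22, SNAP29 was lower by a difference of -1.72 (adjusted p = 0.000459).

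On chromosome 15, 3 rows of 20 held 8 lower genes each. MGA, a repressor of MYC targets, read 6.09 and 5.90 against 7.15 to 7.93 (difference -1.67, limma adjusted p = 0.000168), and SPG11 read 7.0 and 7.06 against 8.06 to 9.15 (difference -1.53, adjusted p = 0.000325). On chromosome 1, 9 of 20 genes from DNAJC11 to PGD were lower, among them KIF1B, a kinesin motor (5.93 and 6.09 against 6.81 to 8.43, adjusted p = 0.00196).

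The called genes closest to the threshold were ODR4, ESPL1 and APOL2, with limma adjusted p of 0.04996, 0.0493 and 0.0492 and differences of -0.53, 0.54 and -1.11. Just outside lay CYP20A1, EI24 and TAF10, with adjusted p of 0.05001, 0.0501 and 0.0503 and differences of -0.61, 1.03 and -0.87.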

How the data were processed

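Data were 8 Affymetrix arrays, 2 for each of 4 cell lines. The values the authors deposited are log2 levels, for which the submitters' processing notes name RMA. RMA corrects background, aligns the arrays and summarises each probe set, and it compresses differences of dim genes. Its version is not given in the sources used here. Of 22277 probe sets, 19064 carried 1 gene symbol, 1043 several and 2170 none; only the first were used. Y-linked genes and 1 X-linked gene of X inactivation were left out. Each of 11939 genes was represented by its brightest probe set (mean of all arrays). Probe sets of a gene disagreed in sign for 8 of the 135 genes named by rule, 74 of which had more than 1 probe set.

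limma 3.58.1 (R 4.3.3) fitted cell line and treatment. The largest p of the 3 contrasts of DOV-13 was adjusted by Benjamini-Hochberg over all genes, and a call also needed all 3 in 1 direction and no overlap of arrays. The model had 3 residual degrees of freedom and 4.41 from the prior. Genes named by rule were the 15 with the widest gap to the nearest other array in each direction among genes at or above the median level, up to 4 called members of each of 47 gene lists, and a fixed set of markers. The members and lists were chosen with earlier results of these data known, and further genes, such as those in rows of neighbours, after their values were seen. Gene order and promoter windows came from RefSeq (GRCh38.p14), and 11930 genes were placed. Scripts were tested on simulated data. The number of arrays limits the precision. Alternatives were other probe set rules, quantile normalization, median centring, a filter on low levels, trended and robust variances, no treatment term, a minimum difference, leaving out each array or line, line as random block, and line means.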

Additional observations from a re-analysis of the deposited data

How the results depend on the processing

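Limits: each line had 1 array per treatment, so the error behind the p-values against each line rests on 3 residual degrees of freedom, with 5 for 2 arrays against 6, and dim genes near the background of the array have compressed differences. Leaving out 1 array in turn gave 315 to 630 higher and 290 to 540 lower genes, and 7 to 109 and 1 to 58 when 2 arrays were compared with 6; the lowest counts came without a DOV-13 array. Without SKOV-3, 1685 genes were higher and 1304 lower (607 and 424 for 2 arrays against the rest); without CAOV-3, 1232 and 951 (266 and 153); without OVCAR-3, 879 were lower. A minimum difference of 1 left 182 higher and 109 lower, and 55 lower for 2 against 6. For 2 arrays against 6, only genes reaching the median level gave 33 higher and 31 lower, trended and robust variances 39 lower, no treatment term 290 higher and 198 lower, the line as a random block 1 and 4, and line means 0 and 0 (limma, smallest adjusted p 0.502; 458 genes at an unadjusted p under 0.05, 597 expected by chance). The cause of these changes was not tested. Of 120 called genes named by rule, 79 kept the call and 120 the sign under the other probe set rules, both normalizations and without each array or line. The random block and line means, run for 2 arrays against 6, are not among these. ERBB2, not called, turned to 0.37 without SKOV-3. Quantile normalization and centring moved the median difference of all genes by -0.0084 and -0.011. Of 47 gene lists, 25 had a median that changed sign under some alternative. The treated and untreated arrays of a line were paired by the line term of the model; no pairing by replicate number was possible because the labels give none.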
